A study of Camellia sinensis and Camellia sinensis var. assamica with 18 samples.

Results

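Leaves of de-acclimated tea seedlings were compared with leaves of seedlings of the same cultivar that had never been chilled. The comparison uses 6 of the 18 RNA-seq libraries of the series, chosen by their labels, and 29019 of the 41021 loci in the deposited table, those with an FPKM (reads scaled for transcript length and library size) of at least 1 in at least 3 of all 18 libraries. The remaining 12002 loci were not tested. The SCZ_DA plants were tissue culture seedlings of the cold-tolerant cultivar Shuchazao (SCZ) sampled on day 21. They had passed 7 days of chilling with days at 10 °C and nights at 4 °C, then 7 days at 4 °C and 0 °C, and then 7 days back at 25 °C and 20 °C. SCZ_NA is the same cultivar on day 0, kept at 25 °C and 20 °C, and each group has 3 libraries. The series also holds SCZ_CA, sampled at the end of the cold on day 14, and the same 3 stages of the cold-sensitive cultivar Yinghong 9 (YH9). All SCZ_NA libraries are of day 0 and all SCZ_DA libraries of day 21, so the cold treatment cannot be told apart from 21 days of further growth or from the day and hour of harvest. The labels do not say whether replicates were separate plants, and p-values measure the spread between these libraries. In leaves, fewer cells of a type and less RNA per cell cannot be told apart.

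Plants kept at low, non-freezing temperatures acclimate: CBF transcription factors switch on genes of protective proteins such as dehydrins and other late embryogenesis abundant (LEA) proteins, and soluble sugars accumulate. On return to warmth this state is lost again, which is called de-acclimation. Heat shock proteins are chaperones that keep other proteins folded and are made in larger amounts in warm or otherwise stressed cells, light-harvesting proteins bind chlorophyll around the photosystems, and the transcripts of both follow temperature, light and the circadian clock.

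The total estimated count per library ranged from 55678493 to 58187658 in SCZ_DA and from 61857623 to 72843673 in SCZ_NA. SCZ_NA replicate 1 stood apart from its group. Its r of log2(FPKM + 1) across loci, which are not independent replicates, was 0.877 with SCZ_NA replicate 2, against 0.917 with SCZ_DA replicate 1. Its summed level of 11 xylem and secondary wall markers was 241 FPKM, while the other 5 libraries lay between 57.6 and 66.1 FPKM. Leaf genes were abundant in all 6 libraries, with 29710, 26200 and 19380 FPKM in SCZ_DA, against 21200, 14880 and 17150 FPKM in SCZ_NA for 19 genes of Rubisco and the Calvin cycle. The 13 root markers summed to 89.2, 95.1 and 91.9 FPKM in SCZ_DA, against 65.8, 89.4 and 87 FPKM in SCZ_NA, and the 12 flower and seed markers to 42.3, 76.2 and 70.8 FPKM in SCZ_DA, against 38.9, 87 and 86.5 FPKM in SCZ_NA. The part of these differences in the results was not tested.

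A limited set of genes differed between de-acclimated and unchilled leaves. Of the 29019 loci, 420 (1.45%) were higher and 459 (1.58%) lower in SCZ_DA, together 3.03%, at a Benjamini-Hochberg adjusted p under 0.05 in edgeR's quasi-likelihood test and at least a 2-fold change. These differentially expressed genes are called DEGs below. The falls were larger than the rises, with median sizes of 1.95 and 1.36 on the log2 scale. Heat shock proteins, light-harvesting proteins and aquaporins made up the groups with the most falls. The rises were more scattered and included CONSTANS-like factors, starch-degrading enzymes, chaperonins, ribosomal proteins and a few cold-response genes. Of the 879 DEGs, 575 had an absolute log2 fold change under 2 and 90 one of at least 4. In 822 of them the 3 FPKM values of one group did not overlap those of the other. Over all loci tested, the SCZ_DA values lay wholly above those of SCZ_NA at 3733 loci (12.9%) and wholly below them at 2634 (9.08%), and the median log2 fold change was −0.05. The smallest exact permutation p for 3 libraries against 3 is 0.1, so the calls rest on a spread shared over all loci and all 18 libraries. That spread is pooled over groups that differ. EdgeR's biological coefficient of variation, a measure of the spread between libraries, was 0.52 in SCZ_NA, 0.61 in SCZ_CA and 0.47 in SCZ_DA. It was 0.39, 0.37 and 0.29 in YH9_NA, YH9_CA and YH9_DA. Each of the 18 libraries was left out in turn, and 161 DEGs, 63 higher and 98 lower, were called in all 18 fits. When only the 6 libraries set the spread, 44 loci (0.152%) were called (7 higher, 0.0241%, and 37 lower, 0.128%), and 37 of these were also called with all 18.

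Several classes of heat shock chaperones held falls after de-acclimation, chaperonins held rises, and DnaJ proteins lay on both sides of 0. Of 131 heat shock genes, 29 fell and 4 rose, or 22.1% and 3.05% against the 1.58% and 1.45% of all loci. The falls included 6 of 16 small heat shock proteins, 4 of 14 HSP70 chaperones, 3 of 7 HSP90 and HSP100 chaperones, 8 of 53 DnaJ co-chaperones, 4 of 14 heat stress factors and 4 of 16 other co-chaperones. The list has a median log2 fold change of −0.16, close to that of all loci, and most of its members were not called. The medians of its classes were −1.49 for small heat shock proteins, −1.38 for HSP70, −0.70 for HSP90 and HSP100, and 0.08 for DnaJ proteins. The 29 falls of the whole list dropped to 21 without SCZ_DA replicate 3 and to 22 without SCZ_NA replicate 2. When only the 6 libraries set the spread, 12 of the 131 fell and 0 rose.

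Small heat shock proteins bind unfolding proteins and hold them in a soluble state. The 16 tested summed to 119, 122 and 113 FPKM in SCZ_DA, against 758, 691 and 714 FPKM in SCZ_NA. Of the 16, 10 lay wholly below SCZ_NA and 0 wholly above, against 9.08% and 12.9% of all loci. A chloroplast member, CSS029227, had 1.87, 0.839 and 1.05 FPKM in SCZ_DA, against 36.5, 32.3 and 36.9 FPKM in SCZ_NA (log2 fold change −4.87 ± 0.68 SE, edgeR adjusted p = 0.00187). The 17.3 kDa class I protein CSS014130, a cytosolic type, had 25.1, 18.9 and 37.8 FPKM in SCZ_DA, against 455, 325 and 280.5 FPKM in SCZ_NA (log2 fold change −3.79 ± 0.46 SE, edgeR adjusted p = 0.000878). In both genes every SCZ_DA library was far below every SCZ_NA library. The 17.3 kDa class II protein CSS002607 had 8.28, 5.84 and 3.43 FPKM in SCZ_DA, against 90.5, 41.6 and 48.1 FPKM in SCZ_NA (log2 fold change −3.50 ± 0.51 SE, edgeR adjusted p = 0.0023), again without overlap. The 3 genes kept their call whichever library was left out, and CSS029227 and CSS014130 also when only the 6 libraries set the spread.

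HSP70 chaperones bind exposed stretches of unfolded proteins and release them with ATP. The 14 tested summed to 314, 393 and 308 FPKM in SCZ_DA, against 2493, 2188 and 2717 FPKM in SCZ_NA. CSS007224, described as heat shock cognate 70 kDa protein 1-like, had 49.8, 25.2 and 22.8 FPKM in SCZ_DA, against 788, 536 and 515 FPKM in SCZ_NA (log2 fold change −4.34 ± 0.52 SE, edgeR adjusted p = 0.000878). The highest de-acclimated library lay far below the lowest unchilled one. CSS025041, the cognate protein 2, had 16, 23 and 18.3 FPKM in SCZ_DA, against 73.2, 105 and 127 FPKM in SCZ_NA (log2 fold change −2.44 ± 0.34 SE, edgeR adjusted p = 0.00182), and CSS041491 had 113, 179.7 and 127 FPKM in SCZ_DA, against 646, 759 and 945 FPKM in SCZ_NA (log2 fold change −2.54 ± 0.34 SE, edgeR adjusted p = 0.00151). The 4 HSP70 genes that fell were called in each of the 18 fits without 1 library. Reads of near-identical HSP70 and small heat shock genes could have been divided between copies in the authors' counting, so the value of a single copy is uncertain.

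Some chaperones that work with HSP70 were lower as well. HSP101 (CSS034436) is an HSP100 enzyme that pulls proteins out of aggregates, and it had 22.3, 27.8 and 21 FPKM in SCZ_DA, against 77.6, 142 and 142 FPKM in SCZ_NA (log2 fold change −2.36 ± 0.30 SE, edgeR adjusted p = 0.00135). HSC80 (CSS000992), an HSP90 that matures signalling proteins, had 223, 271 and 235 FPKM in SCZ_DA, against 646, 792 and 854 FPKM in SCZ_NA (log2 fold change −1.70 ± 0.25 SE, edgeR adjusted p = 0.0028). The HSP70-HSP90 organizing protein CSS014241, which hands clients from one chaperone to the other, had 43.1, 55.2 and 39.2 FPKM in SCZ_DA, against 138, 201 and 205 FPKM in SCZ_NA (log2 fold change −2.02 ± 0.27 SE, edgeR adjusted p = 0.00137). None of these 3 genes overlapped between the groups. DnaJ proteins bring clients to HSP70, and one of them, CSS040324, had 3.51, 2.13 and 2.51 FPKM in SCZ_DA, against 23, 33.9 and 29.9 FPKM in SCZ_NA (log2 fold change −3.43 ± 0.43 SE, edgeR adjusted p = 0.00112), and it was also called with the spread of the 6 libraries. The DnaJ class went both ways, with 27 members above a log2 fold change of 0 and 24 below. Of its members, 11 lay wholly above SCZ_NA and 9 wholly below, against 12.9% and 9.08% of all loci. The DnaJ count of falls dropped to 5 without SCZ_NA replicate 2, SCZ_DA replicate 2 or SCZ_DA replicate 3. The 4 falls among the other co-chaperones dropped to 2 without SCZ_NA replicate 2 and to 1 without SCZ_DA replicate 3.

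Some of the transcription factors that switch on chaperone genes fell as well. HSFA2 (CSS038896), a heat stress transcription factor that is itself induced by heat, had 0.707, 0.275 and 0.741 FPKM in SCZ_DA, against 4.97, 22.3 and 20.8 FPKM in SCZ_NA (log2 fold change −4.73 ± 0.65 SE, edgeR adjusted p = 0.00176). SCZ_NA replicate 1 was the lowest unchilled library, yet still above every SCZ_DA library. HSFA7a-like CSS052140, chosen after its values were seen, had 1.34, 0.952 and 1.83 FPKM in SCZ_DA, against 3.38, 16.2 and 9.75 FPKM in SCZ_NA (log2 fold change −2.77 ± 0.53 SE, edgeR adjusted p = 0.0133). Both were called in all 18 fits with 1 library left out.

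Chaperonins moved the other way from the heat shock classes. These barrel-shaped chaperones of the HSP60 type and their partners fold newly made proteins inside chloroplasts and mitochondria. Of 11 tested, 4 rose (36.4%, against 1.45% of all loci) and 0 fell by edgeR (0 lower at an unadjusted p under 0.05, 0 by DESeq2 and 0 by limma). Their median was 1.17, and 7 of the 11 lay wholly above SCZ_NA, against 12.9% of all loci. Their levels summed to 264, 236 and 292 FPKM in SCZ_DA, against 182, 199 and 193 FPKM in SCZ_NA. The list also holds the chaperonin-like RBCX (CSS012707), which assists the assembly of Rubisco and is not itself of the HSP60 type. RBCX had 25.9, 13.5 and 27 FPKM in SCZ_DA, against 4.88, 1.84 and 1.73 FPKM in SCZ_NA (log2 fold change 2.81 ± 0.55 SE, edgeR adjusted p = 0.0142). The mitochondrial CPN60-like protein CSS014631 had 1.82, 2.28 and 2.47 FPKM in SCZ_DA, against 0.231, 0.739 and 0.612 FPKM in SCZ_NA (log2 fold change 2.08 ± 0.37 SE, edgeR adjusted p = 0.00897), with no overlap between groups in either gene. Only 1 of the 4 calls was left without SCZ_NA replicate 2, SCZ_NA replicate 3 or SCZ_DA replicate 3, and 2 were left without YH9_DA replicate 2 or 3. CSS014631 was called in each of the 18 fits, and the RBCX call was lost without SCZ_NA replicate 2, SCZ_NA replicate 3 or SCZ_DA replicate 3 (adjusted p = 0.0543 to 0.0576 by edgeR).

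**Figure D1:**
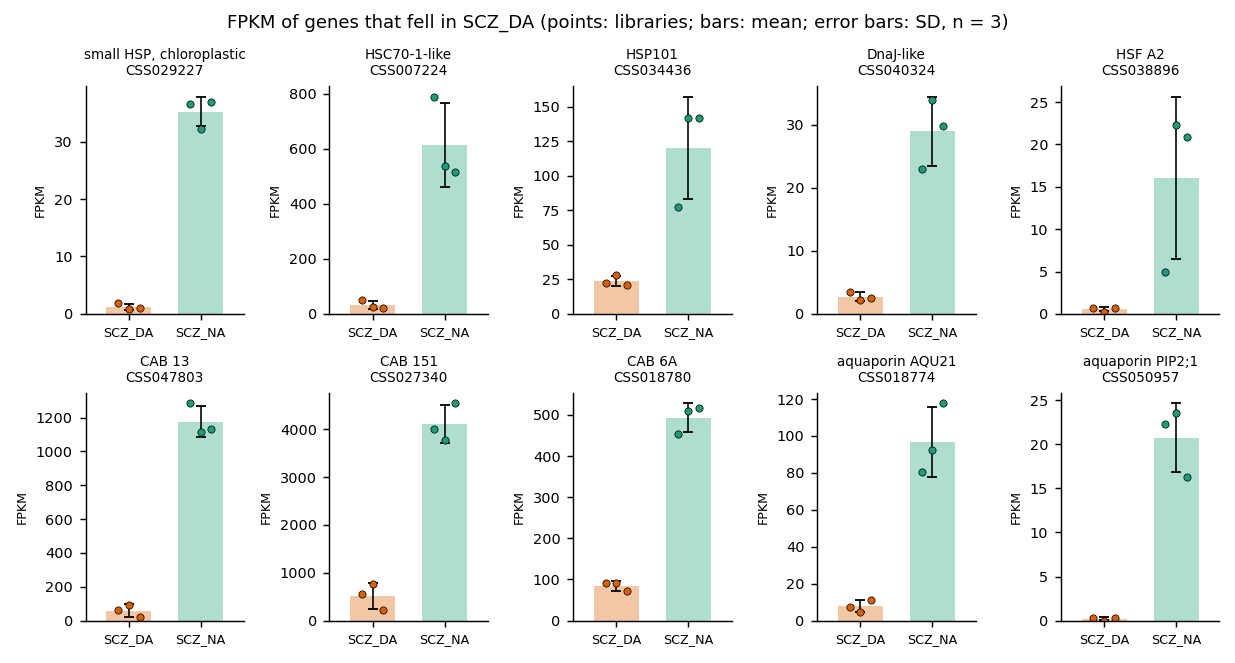
FPKM of 10 genes that fell, on a separate linear axis for each gene starting at 0, with SCZ_DA on the left and SCZ_NA on the right of each panel. Bars are the mean, error bars the SD and points the 3 libraries; in all 10 genes the SCZ_DA points lie below the SCZ_NA points, as for CSS007224 with 49.8, 25.2 and 22.8 FPKM against 788, 536 and 515 FPKM.

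Light-harvesting proteins were lower in de-acclimated leaves, while the photosystem cores they surround were not called. All 18 light-harvesting genes tested had a negative log2 fold change, from −4.75 to −0.29 with a median of −2.74. Of these, 11 fell (61.1%, against 1.58% of all loci) and 0 rose by edgeR (0 higher at an unadjusted p under 0.05, 0 by DESeq2 and 0 by limma). Wholly below SCZ_NA lay 15 of them, against 9.08% of all loci. Their levels summed to 6644, 8353 and 4232 FPKM in SCZ_DA, against 33910, 27950 and 29940 FPKM in SCZ_NA. SCZ_DA replicate 3 was the lowest library of all. Among 10 photosystem I subunits, 20 photosystem II subunits, 35 genes of electron transport and ATP synthase and 19 genes of Rubisco and the Calvin cycle, edgeR called 0 in either direction. At an unadjusted p under 0.05, 3 genes of photosystem I, 2 of the Calvin cycle and 2 of electron transport were lower, and 1 gene of photosystem II and 2 of electron transport were higher. DESeq2 called 1 photosystem I gene lower and 1 gene of electron transport higher, and limma called 0. Their medians were −0.41, −0.21, −0.04 and 0.26, and that of the photosystem II subunits was 0.85 without SCZ_NA replicate 1.

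The chlorophyll a-b binding protein 13 (CSS047803), an antenna protein of photosystem II, had 61.3, 93.9 and 18.9 FPKM in SCZ_DA, against 1284, 1113 and 1131 FPKM in SCZ_NA (log2 fold change −4.45 ± 0.55 SE, edgeR adjusted p = 0.000914). CSS027340, a further protein of the same antenna, had 558, 759.7 and 220.1 FPKM in SCZ_DA, against 4012, 3769 and 4537 FPKM in SCZ_NA (log2 fold change −3.09 ± 0.50 SE, edgeR adjusted p = 0.00507). In both, SCZ_DA replicate 3 was the lowest of the 6 libraries. CSS018780, the protein 6A of the photosystem I antenna, had 91.1, 92.4 and 71.1 FPKM in SCZ_DA, against 454, 509 and 518 FPKM in SCZ_NA (log2 fold change −2.60 ± 0.38 SE, edgeR adjusted p = 0.0023), with close agreement between the replicates of each group. CP24 (CSS023557), a linker between the antenna and the core of photosystem II, fell less, with 338, 460.2 and 137 FPKM in SCZ_DA, against 1188, 870.5 and 1048 FPKM in SCZ_NA (log2 fold change −1.84 ± 0.43 SE, edgeR adjusted p = 0.0311). The CP24 call was lost without SCZ_NA replicate 1, SCZ_NA replicate 3, SCZ_DA replicate 1 or SCZ_DA replicate 3 (adjusted p = 0.0536 to 0.127 by edgeR), while the calls of the other 3 were kept in all 18 fits. The count of 11 dropped to 6 without SCZ_DA replicate 3 and to 3 when only the 6 libraries set the spread. Loci of the LHCII type 1 protein include near-identical neighbours, so the split of reads among them is uncertain. For scale, CSS045379 alone had 878, 814 and 437 FPKM in SCZ_DA, against 10087, 5461 and 5642 FPKM in SCZ_NA, and its call was lost without SCZ_DA replicate 3 (adjusted p = 0.0532 by edgeR).

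Many aquaporins, the water channels of plant membranes, were lower. Of 28 tested, 26 had a negative log2 fold change and 15 lay wholly below SCZ_NA, against 9.08% of all loci. By edgeR 9 fell (32.1%, against 1.58% of all loci) and 0 rose (0 higher at an unadjusted p under 0.05, 0 by DESeq2 and 0 by limma). The median was −1.22, and the levels summed to 1476, 2110 and 1906 FPKM in SCZ_DA, against 3277, 3425 and 2870 FPKM in SCZ_NA. AQU21 (CSS018774) had 7.47, 4.86 and 11.3 FPKM in SCZ_DA, against 80.6, 92.4 and 118 FPKM in SCZ_NA (log2 fold change −3.65 ± 0.39 SE, edgeR adjusted p = 0.000376). The highest de-acclimated library lay far below the lowest unchilled one. AQU21 was called in all 18 fits without 1 library and when the spread came from the 6 or from the 9 SCZ libraries alone. PIP2;1 (CSS050957), a plasma membrane channel, was near 0 after de-acclimation, with 0.27, 0 and 0.329 FPKM in SCZ_DA, against 22.3, 23.6 and 16.2 FPKM in SCZ_NA (log2 fold change −6.72 ± 1.26 SE, edgeR adjusted p = 0.0113). The call was lost without SCZ_DA replicate 3 (adjusted p = 0.0507 by edgeR). PIP2-2 (CSS000837) had 0.117, 0.192 and 0.513 FPKM in SCZ_DA, against 13.3, 6.57 and 9.06 FPKM in SCZ_NA (log2 fold change −5.22 ± 0.91 SE, edgeR adjusted p = 0.00808) and was called in all 18 fits. The more abundant aquaporin protein 13 (CSS046490) had 21.1, 53.3 and 25.4 FPKM in SCZ_DA, against 58.4, 207 and 99.6 FPKM in SCZ_NA (log2 fold change −1.87 ± 0.41 SE, edgeR adjusted p = 0.0235), a range so wide in both groups that the values of SCZ_DA replicate 2 and SCZ_NA replicate 1 nearly met. Its call was lost without SCZ_NA replicate 2, SCZ_DA replicate 1 or SCZ_DA replicate 3 (adjusted p = 0.0593 to 0.121 by edgeR). The family count was 3 without SCZ_NA replicate 2 or SCZ_DA replicate 3, 4 without SCZ_DA replicate 1, YH9_DA replicate 2 or YH9_DA replicate 3, 5 without YH9_NA replicate 2 or YH9_DA replicate 1, and 1 with the spread of the 6 libraries. The family median lay between −1.40 and −1.12 in the 18 fits.

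Genes of the circadian clock and of photoperiod moved in both directions. Of 48 tested, 6 rose (12.5%) and 7 fell (14.6%), against 1.45% and 1.58% of all loci. The 7 falls became 4 without any 1 of the SCZ_NA libraries and 3 without SCZ_DA replicate 2 or 3. All 5 rises in the class of Dof and CONSTANS-like factors, regulators between the clock and flowering, were called in each of the 18 fits without 1 library, out of 14 tested with a median of 0.90. When only the 6 libraries set the spread, 0 of this class were called. Among 11 genes listed as evening clock factors, with response regulators among them, 4 fell and 1 rose. Among 5 genes listed as morning factors 0 were called by edgeR (1 higher and 1 lower at an unadjusted p under 0.05, and 1 higher by DESeq2 and by limma). Both classes were taken by product description, and the hour at which each member peaks was not examined. The hour of harvest is not in the labels, and clock transcripts cycle over the day.

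CONSTANS-LIKE 2-like (CSS050392) had 32.7, 113 and 211 FPKM in SCZ_DA, against 8.49, 15.5 and 11.6 FPKM in SCZ_NA (log2 fold change 3.31 ± 0.58 SE, edgeR adjusted p = 0.00784). Its de-acclimated libraries spread widely, with the lowest still above the highest unchilled one. CONSTANS-LIKE 16 (CSS002836) had 19.7, 30.5 and 37 FPKM in SCZ_DA, against 1.61, 4.11 and 5.69 FPKM in SCZ_NA (log2 fold change 2.96 ± 0.50 SE, edgeR adjusted p = 0.00602). A locus of CONSTANS-LIKE 9-1 (CSS023835) had 5.31, 10.3 and 11.4 FPKM in SCZ_DA, against 1.15, 0.666 and 0.643 FPKM in SCZ_NA (log2 fold change 3.33 ± 0.48 SE, edgeR adjusted p = 0.0023), and a second locus of that name (CSS004624) had 4.15, 3.29 and 8.72 FPKM in SCZ_DA, against 0.694, 0.459 and 0.607 FPKM in SCZ_NA (log2 fold change 3.12 ± 0.40 SE, edgeR adjusted p = 0.00135). The 2 loci of CONSTANS-LIKE 9-1 were chosen after their values were seen, and in all 4 genes the groups did not overlap. The other 2 calls in this class were falls of CONSTANS-LIKE 10-like (CSS026512, log2 fold change −1.89) and CONSTANS-LIKE 5-like (CSS046375, log2 fold change −1.32), and both were lost without SCZ_NA replicate 1, SCZ_DA replicate 2 or SCZ_DA replicate 3.

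GIGANTEA (CSS034243), an evening clock protein that acts upstream of CONSTANS in flowering, had 1.82, 1.13 and 2.04 FPKM in SCZ_DA, against 19.6, 17.1 and 21.2 FPKM in SCZ_NA (log2 fold change −3.59 ± 0.47 SE, edgeR adjusted p = 0.00137). The replicates of each group lay close together, and the gene was also called with the spread of the 6 libraries. EARLY FLOWERING 4 (CSS004811), a subunit of the evening complex that represses clock genes at night, had 8.05, 8.01 and 6.99 FPKM in SCZ_DA, against 22.8, 23.2 and 23.5 FPKM in SCZ_NA (log2 fold change −1.65 ± 0.22 SE, edgeR adjusted p = 0.00148). The response regulator APRR1 (CSS030855), an evening repressor of morning genes, was higher, with 2.81, 4.57 and 5.1 FPKM in SCZ_DA, against 0.961, 1.68 and 1.95 FPKM in SCZ_NA (log2 fold change 1.43 ± 0.29 SE, edgeR adjusted p = 0.0175), a call lost without SCZ_NA replicate 2 or SCZ_DA replicate 3 (adjusted p = 0.0576 to 0.0932 by edgeR). GIGANTEA and EARLY FLOWERING 4 kept their call in all 18 fits. The other 2 falls in the list of evening factors were the response regulators PRR37 (CSS014016) and APRR5 (CSS050021), called in 5 of the 18 fits each. That list's 4 falls dropped to 2 without SCZ_NA replicate 3, SCZ_DA replicate 2 or any 1 YH9 library. EARLY FLOWERING 4 and the 3 response regulators were chosen after their values were seen.

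**Figure D2:**
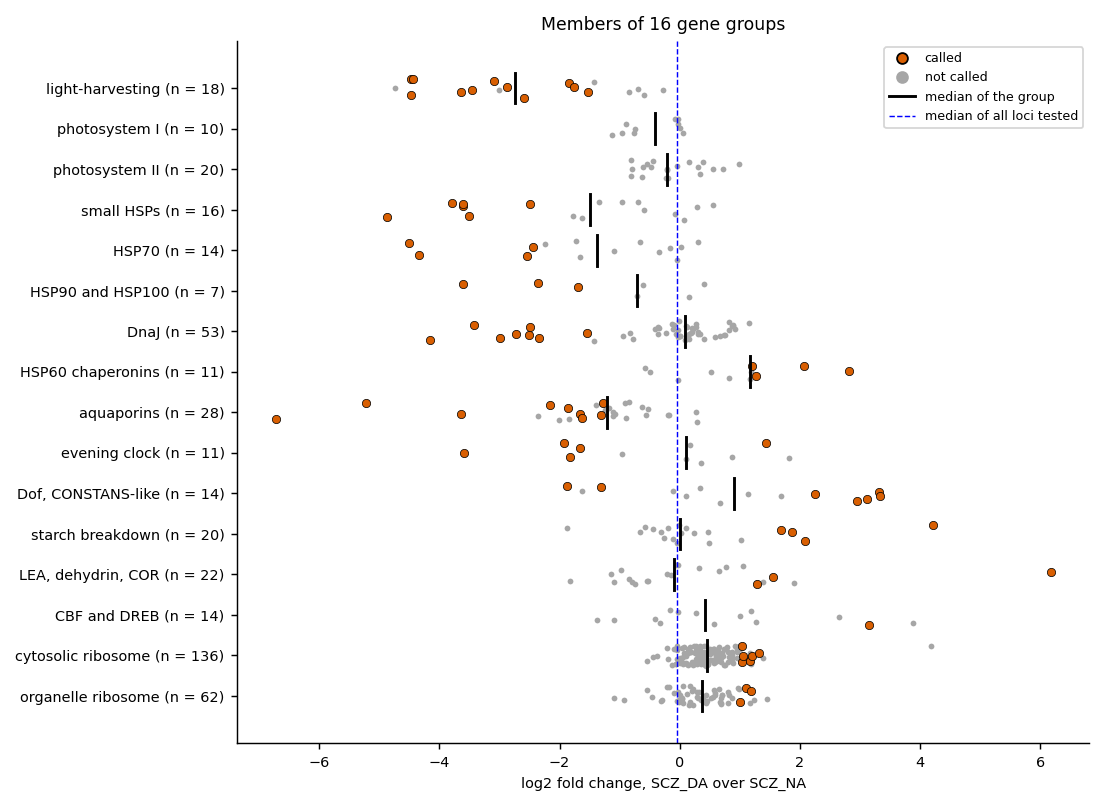
Log2 fold changes of SCZ_DA over SCZ_NA for the members of 16 gene groups, 1 row per group. Orange points are DEGs, grey points were not called, the black bar is the group median and the dashed blue line the median of all 29019 loci (−0.05); the light-harvesting points all lie below 0, with a median of −2.74.

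Some genes that break down starch were higher after de-acclimation. Of 20 tested, 4 rose (20.0%, against 1.45% of all loci) and 0 fell by edgeR, beside falls at 1.58% of all loci. At an unadjusted p under 0.05, 2 were lower, and DESeq2 and limma called 0 lower. The median was 0.00, and the remaining genes lay on both sides of 0. Of 13 genes of starch synthesis, edgeR called 0 (1 higher and 2 lower at an unadjusted p under 0.05, and 1 lower by DESeq2 and by limma). A chloroplast beta-amylase 3 locus (CSS050373), an enzyme that releases maltose from starch, had 9.63, 9.8 and 9.69 FPKM in SCZ_DA, against 0.381, 0.626 and 0.525 FPKM in SCZ_NA (log2 fold change 4.21 ± 0.62 SE, edgeR adjusted p = 0.00275). Its 3 de-acclimated libraries were nearly equal, and all 3 unchilled ones were far lower. The call was kept in all 18 fits and with the spread of the 6 libraries. Beta-amylase 5 (CSS024024) had 3.81, 5.04 and 9.34 FPKM in SCZ_DA, against 0.586, 2.31 and 1.51 FPKM in SCZ_NA (log2 fold change 2.09 ± 0.39 SE, edgeR adjusted p = 0.0112), without overlap, and lost its call without SCZ_DA replicate 3 (adjusted p = 0.0596 by edgeR). Isoamylase 3 (CSS014823), which cuts the branches of starch, had 8.51, 10.8 and 20.7 FPKM in SCZ_DA, against 4.7, 2.58 and 4.4 FPKM in SCZ_NA (log2 fold change 1.69 ± 0.36 SE, edgeR adjusted p = 0.021), and its call was lost without SCZ_NA replicate 2, SCZ_NA replicate 3 or SCZ_DA replicate 3 (adjusted p = 0.0636 to 0.12 by edgeR). The count of 4 dropped to 2 without SCZ_NA replicate 2 and to 1 without SCZ_DA replicate 3. Of 51 sugar transporters, 1 rose and 1 fell (1.96% each), near the 1.45% and 1.58% of all loci, and their median was 0.01. A hexose transporter (CSS002115) rose, with 37.1, 55.7 and 47 FPKM in SCZ_DA, against 15.8, 20.8 and 15.8 FPKM in SCZ_NA (log2 fold change 1.36 ± 0.21 SE, edgeR adjusted p = 0.0035). Polyol transporter 4 (CSS003611) fell, with 4.45, 2.79 and 4.97 FPKM in SCZ_DA, against 17.4, 13.8 and 23.3 FPKM in SCZ_NA (log2 fold change −2.21 ± 0.35 SE, edgeR adjusted p = 0.00438).

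Few genes of the cold response passed the test. Of 22 LEA, dehydrin and cold-regulated genes, 3 rose (13.6%, against 1.45% of all loci) and 0 fell by edgeR (1 lower at an unadjusted p under 0.05, 0 by DESeq2 and 0 by limma). The median was −0.10 and the largest log2 fold change 6.18. The 22 summed to 1367, 1886 and 6845 FPKM in SCZ_DA, against 751, 1127 and 1313 FPKM in SCZ_NA. SCZ_DA replicate 3 was far above all other libraries. Of 14 CBF and DREB factors, 1 rose (7.14%, against 1.45% of all loci). A LEA protein (CSS038121) had 115, 143 and 208 FPKM in SCZ_DA, against 49, 50.7 and 52.4 FPKM in SCZ_NA (log2 fold change 1.56 ± 0.24 SE, edgeR adjusted p = 0.00405), with a narrow range in SCZ_NA and no overlap, and was called in all 18 fits. A second LEA protein (CSS041102) had 54.7, 88.1 and 136 FPKM in SCZ_DA, against 33.8, 30.9 and 46 FPKM in SCZ_NA (log2 fold change 1.28 ± 0.31 SE, edgeR adjusted p = 0.0369). Every SCZ_DA library was above every SCZ_NA library, but the call was lost without SCZ_NA replicate 2, SCZ_NA replicate 3, SCZ_DA replicate 2, SCZ_DA replicate 3, YH9_CA replicate 2, YH9_CA replicate 3, YH9_DA replicate 1, YH9_DA replicate 2 or YH9_DA replicate 3 (adjusted p = 0.0511 to 0.198 by edgeR). A CBF-like factor (CSS018720) had 8.83, 37.7 and 105 FPKM in SCZ_DA, against 7.29, 1.58 and 6.82 FPKM in SCZ_NA (log2 fold change 3.16 ± 0.74 SE, edgeR adjusted p = 0.0319). SCZ_DA replicate 1 stood just above the highest unchilled library, and replicate 3 was far above both other de-acclimated ones. The call was lost without SCZ_NA replicate 2, SCZ_NA replicate 3 or SCZ_DA replicate 3 (adjusted p = 0.0849 to 0.181 by edgeR). CBF-like protein 1 (CSS002244) had 2.84, 2.96 and 23.4 FPKM in SCZ_DA, against 1.14, 0.1 and 0.567 FPKM in SCZ_NA (log2 fold change 3.88 ± 1.04 SE, edgeR adjusted p = 0.0503) and was not called. The CBF count became 0 without SCZ_NA replicate 2, SCZ_NA replicate 3 or SCZ_DA replicate 3 and was 2 without each of SCZ_NA replicate 1, SCZ_CA replicates 1 and 2 and SCZ_DA replicates 1 and 2. The LEA count was 2 without SCZ_NA replicate 2 or SCZ_DA replicate 3, and 5 without SCZ_NA replicate 1 or SCZ_DA replicate 1. Both counts were 0 when only the 6 libraries set the spread.

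The study designed RT-qPCR primers for 20 genes, all of which were tested. Beta-amylase 5 and the LEA protein CSS041102 were called, both higher, and 0 of the 20 were lower by edgeR. The primer pairs of these 2 genes are shown, 5′ to 3′, because they mark the transcripts that can be measured again by another method.
CSS024024 beta-amylase 5 forward: gggttttagagattggtcgt
CSS024024 beta-amylase 5 reverse: tcttcataacattggagggc
CSS041102 LEA protein forward: ctgatggagaaggcgaagaac
CSS041102 LEA protein reverse: ggaacggagtgactgtaagg
Part of the RT-qPCR genes were picked from the DEGs of the study, so these counts are not independent evidence. Spermidine synthase (CSS012142), an enzyme of polyamine synthesis, had 30.7, 42.3 and 55.4 FPKM in SCZ_DA, against 20.5, 25.3 and 24.4 FPKM in SCZ_NA (log2 fold change 0.83 ± 0.21 SE, edgeR adjusted p = 0.0394), below the 2-fold limit. Arginine decarboxylase (CSS043070), an earlier step of the same pathway, had 8.11, 33.4 and 16.1 FPKM in SCZ_DA, against 4.48, 9.39 and 9.31 FPKM in SCZ_NA (log2 fold change 1.29 ± 0.75 SE, edgeR adjusted p = 0.366). Of 34 genes of arginine, proline and polyamine metabolism, 1 fell (2.94%, against 1.58% of all loci) and 0 rose by edgeR (4 higher at an unadjusted p under 0.05, 1 by DESeq2 and 0 by limma). The gene that fell was an argininosuccinate synthase (CSS032116), whose FPKM values overlapped between the groups, and its call was lost without SCZ_NA replicate 2 or SCZ_DA replicate 3.

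Single genes of several hormones changed. Gibberellin 2-beta-dioxygenase 8-like (CSS025179), of a family that inactivates gibberellins, had 25.9, 26.8 and 29.8 FPKM in SCZ_DA, against 4.15, 3.61 and 4.95 FPKM in SCZ_NA (log2 fold change 2.63 ± 0.47 SE, edgeR adjusted p = 0.00877). The 3 libraries of each group lay within a narrow range, and the gene was called in all 18 fits and with the spread of the 6 libraries. The ethylene-responsive factor ERF054-like (CSS044067) had 0.156, 0.272 and 0.285 FPKM in SCZ_DA, against 5.14, 3.43 and 8.2 FPKM in SCZ_NA (log2 fold change −4.58 ± 0.60 SE, edgeR adjusted p = 0.00137), and it was called in all 18 fits and with the spread of the 6 or the 9 SCZ libraries. Of 70 ethylene genes, 3 rose (4.29%) and 4 fell (5.71%), against 1.45% and 1.58% of all loci. The rises became 0 without SCZ_NA replicate 2 or SCZ_DA replicate 3 and 1 without YH9_NA replicate 3, YH9_CA replicate 2 or 3 or YH9_DA replicate 2 or 3, and the falls 2 without SCZ_NA replicate 3 or SCZ_DA replicate 3. RAP2-7-like (CSS023205), a relative of ERF054, fell by less, with a log2 fold change of −1.39. Of 96 abscisic acid genes, 1 rose (1.04%) and 3 fell (3.12%), while DESeq2 called 2 higher and 8 lower. The single rise was lost without any 1 of the SCZ_NA libraries, SCZ_DA replicate 2 or 3 or any 1 YH9 library, and 2 genes were called higher without SCZ_CA replicate 2. Of 94 auxin genes, 2 rose (2.13%) and 3 fell (3.19%), 64 had a negative log2 fold change, and the median was −0.52, between −0.62 and −0.29 in the 18 fits. The auxin rises became 0 without SCZ_DA replicate 3, 1 without SCZ_NA replicate 1 or 2 and 5 without SCZ_DA replicate 1. The auxin falls became 0 without SCZ_NA replicate 2 or SCZ_DA replicate 3, 1 without SCZ_NA replicate 3 or SCZ_DA replicate 1 and 5 without SCZ_CA replicate 2. The receptor PYL8 (CSS036090) had 3.15, 3.42 and 3.82 FPKM in SCZ_DA, against 6.32, 13.3 and 14.7 FPKM in SCZ_NA (log2 fold change −1.72 ± 0.26 SE, edgeR adjusted p = 0.0035). Abscisic acid 8'-hydroxylase 4 (CSS004253), which breaks the hormone down, had 0.407, 1.09 and 0.392 FPKM in SCZ_DA, against 3.84, 19.7 and 10.3 FPKM in SCZ_NA (log2 fold change −4.13 ± 0.86 SE, edgeR adjusted p = 0.0193), and its call was lost without SCZ_NA replicate 2, SCZ_DA replicate 1 or SCZ_DA replicate 3 (adjusted p = 0.0508 to 0.108 by edgeR). PYL8 kept its call in all 18 fits. All 7 calls among 120 calcium signalling genes (5.83%, against falls at 1.58% of all loci) were falls, 6 of them CIPK kinases and 1 a calcium-dependent protein kinase. CIPK6 (CSS028304), a kinase steered by calcineurin B-like calcium sensors, had 528, 366 and 255 FPKM in SCZ_DA, against 1531, 1059 and 995 FPKM in SCZ_NA (log2 fold change −1.75 ± 0.35 SE, edgeR adjusted p = 0.0153). The count of 7 became 0 without SCZ_DA replicate 3.

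Ribosomal proteins, the building blocks of the protein-making machinery, lay mostly slightly above the unchilled level. Of 231 tested, 195 had a positive log2 fold change, and the median was 0.44. By edgeR 12 rose (5.19%, against 1.45% of all loci) and 0 fell (3 lower at an unadjusted p under 0.05, 1 by DESeq2 and 0 by limma). Wholly above SCZ_NA lay 116 and wholly below it 7, against 12.9% and 9.08% of all loci. The cytosolic class of 136 genes had a median of 0.46 and summed to 9091, 10440 and 11440 FPKM in SCZ_DA, against 7807, 6583 and 7748 FPKM in SCZ_NA. L23a of the large subunit (CSS002170) had 62.6, 71.2 and 81.3 FPKM in SCZ_DA, against 27, 33.7 and 41.7 FPKM in SCZ_NA (log2 fold change 1.04 ± 0.22 SE, edgeR adjusted p = 0.0198), and lost its call without SCZ_NA replicate 2 or SCZ_DA replicate 3 (adjusted p = 0.0762 to 0.101 by edgeR). S33 of the mitochondrial ribosome (CSS026280), chosen after its values were seen, had 30.3, 31.9 and 32.6 FPKM in SCZ_DA, against 13.1, 15 and 13.8 FPKM in SCZ_NA (log2 fold change 1.12 ± 0.18 SE, edgeR adjusted p = 0.00506) and kept its call in all 18 fits. The median of the 231 stayed between 0.31 and 0.67 in the 18 fits and between 0.41 and 0.51 under the other scalings and tests. The count of 12 was 2 without SCZ_NA replicate 2 or SCZ_DA replicate 3, 5 without SCZ_NA replicate 3, 6 without SCZ_DA replicate 2 or any 1 YH9_DA library, 7 without YH9_CA replicate 2, and 0 with the spread of the 6 libraries.

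Other genes that moved belong to surface lipids, cell walls, terpenoids, volatiles and sulfur. A non-specific lipid-transfer protein 1-like gene (CSS039523), of a family that carries lipids to the leaf surface, had 38.4, 18.6 and 52.4 FPKM in SCZ_DA, against 1.24, 2.93 and 2.05 FPKM in SCZ_NA (log2 fold change 4.13 ± 0.98 SE, edgeR adjusted p = 0.0327). It was called with the spread of the 6 libraries and lost its call without SCZ_NA replicate 1, SCZ_NA replicate 2, SCZ_NA replicate 3 or SCZ_DA replicate 3 (adjusted p = 0.0669 to 0.123 by edgeR). A xyloglucan endotransglucosylase/hydrolase (CSS038581), which remodels cell walls, had 69.8, 186 and 199 FPKM in SCZ_DA, against 25.2, 41.9 and 45.5 FPKM in SCZ_NA (log2 fold change 1.99 ± 0.40 SE, edgeR adjusted p = 0.0165), and its call was lost without SCZ_NA replicate 2 or SCZ_DA replicate 3 (adjusted p = 0.0569 to 0.0811 by edgeR). The first enzyme of the plastid isoprenoid pathway, 1-deoxyxylulose 5-phosphate synthase (CSS014606), had 1.59, 28.2 and 30.7 FPKM in SCZ_DA, against 0.194, 0.847 and 0.582 FPKM in SCZ_NA (log2 fold change 5.24 ± 0.95 SE, edgeR adjusted p = 0.00931). SCZ_DA replicate 1 was close to the unchilled libraries, and the call was kept in all 18 fits. A putative alcohol acyl transferase (CSS000946), of an enzyme family that makes volatile esters, had 0.591, 1.52 and 0.311 FPKM in SCZ_DA, against 11.5, 24.9 and 35.3 FPKM in SCZ_NA (log2 fold change −4.90 ± 0.51 SE, edgeR adjusted p = 0.000303). A second locus of that description (CSS005722) had 0.235, 0.21 and 0.16 FPKM in SCZ_DA, against 2.26, 3.78 and 6.37 FPKM in SCZ_NA (log2 fold change −4.29 ± 0.42 SE, edgeR adjusted p = 0.000217). ATP sulfurylase (CSS051671), the first step of sulfate assimilation, had 8.75, 10.3 and 6.79 FPKM in SCZ_DA, against 78.9, 98.1 and 172 FPKM in SCZ_NA (log2 fold change −3.78 ± 0.60 SE, edgeR adjusted p = 0.00438). None of these 3 genes overlapped between the groups, and each was called in all 18 fits. Ascorbate peroxidase (CSS032148), which removes hydrogen peroxide, had 103, 117 and 145 FPKM in SCZ_DA, against 408, 417 and 477 FPKM in SCZ_NA (log2 fold change −1.89 ± 0.29 SE, edgeR adjusted p = 0.00326), likewise in all 18 fits. Among 97 antioxidant genes, 3 rose (3.09%) and 2 fell (2.06%), against 1.45% and 1.58% of all loci. Most went the other way from this peroxidase, with 66 positive and 30 negative log2 fold changes and a median of 0.23. Wholly above SCZ_NA lay 30 and wholly below it 6, against 12.9% and 9.08% of all loci. The 3 rises became 5 without SCZ_NA replicate 1 and 0 without SCZ_NA replicate 2 or 3, SCZ_DA replicate 1 or 3, YH9_NA replicate 2, YH9_CA replicate 2 or any 1 YH9_DA library. The falls became 1 without SCZ_NA replicate 1, SCZ_DA replicate 2 or 3, YH9_CA replicate 2 or YH9_DA replicate 2 or 3.

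**Figure D3:**
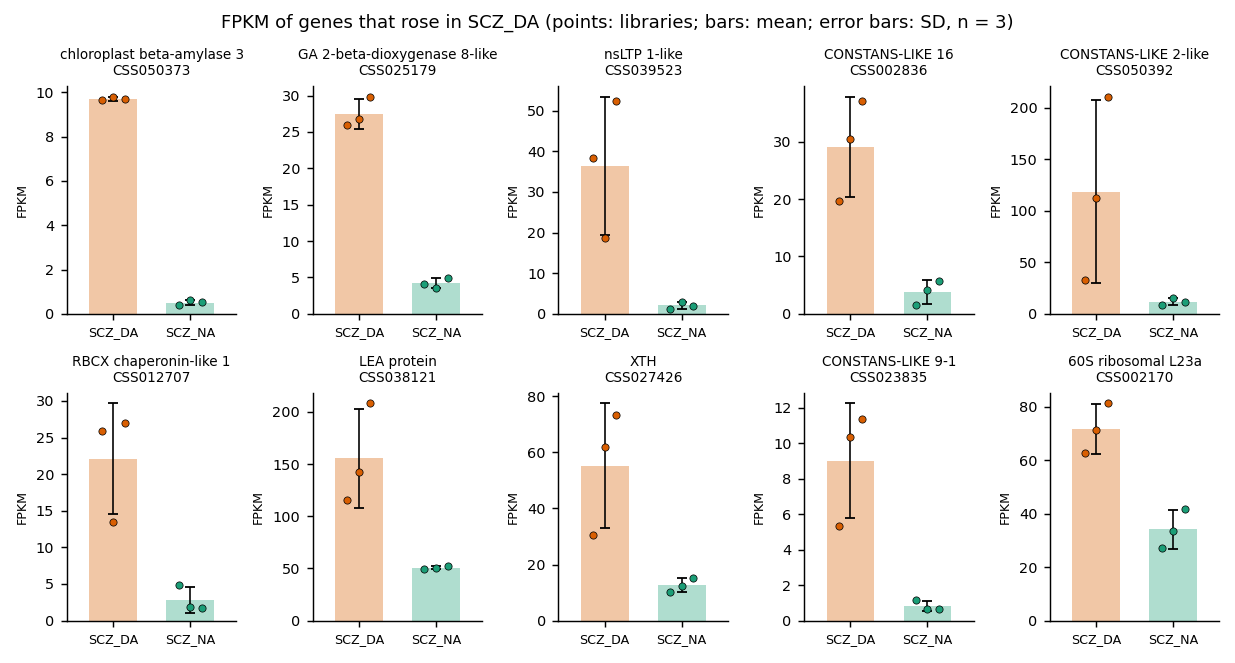
FPKM of 10 genes that rose, on a separate linear axis for each gene starting at 0, with SCZ_DA on the left and SCZ_NA on the right of each panel. Bars are the mean, error bars the SD and points the 3 libraries; CSS050373 has 9.63, 9.8 and 9.69 FPKM in SCZ_DA against 0.381, 0.626 and 0.525 FPKM in SCZ_NA, with no overlap.

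Some loci held no counts in one of the groups, and 2 of them are described here. Phosphopantetheine adenylyltransferase (CSS014649), an enzyme of coenzyme A synthesis, had 7.23, 6.86 and 5.83 FPKM in SCZ_DA, against 0, 0 and 0 FPKM in SCZ_NA. The de-acclimated libraries held 238, 214 and 191 estimated counts, and against a floor of 3 counts per library the gene was at least 61.5-fold higher in SCZ_DA. In YH9 it had 12, 0 and 9.64 FPKM at DA and 10.7, 11.1 and 8.06 FPKM at NA, so single libraries without reads also occurred there. A metaxin-related locus (CSS006881), chosen after its values were seen, was at 0 in SCZ_DA and had 50, 111 and 78 estimated counts in SCZ_NA, at least 22.5-fold lower in SCZ_DA by the same floor. It was not called with all 18 libraries.

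Many lists gave few calls, beside 1.45% of all loci called higher and 1.58% called lower. Of 95 phenylpropanoid and lignin genes 1 fell and 0 rose by edgeR (7 higher and 23 lower at an unadjusted p under 0.05, 1 higher and 10 lower by DESeq2, and 2 lower by limma). The single fall was lost without SCZ_NA replicate 2 or SCZ_DA replicate 3, and the count was 2 without SCZ_DA replicate 2, 3 without SCZ_NA replicate 1 and 6 without SCZ_DA replicate 1. Of 31 flavonoid genes edgeR called 0 (3 higher and 6 lower at an unadjusted p under 0.05, 2 lower by DESeq2 and 0 by limma). The flavonoid genes, which make the catechins of tea, had a median of −0.75 and summed to 5887, 3064 and 1752 FPKM in SCZ_DA, against 8680, 7510 and 3792 FPKM in SCZ_NA, with a wide spread inside both groups. EdgeR also called 0 of 36 jasmonate genes (1 higher and 6 lower at an unadjusted p under 0.05, and 0 by DESeq2 and limma). The same held for 43 glutathione S-transferases (1 higher and 2 lower unadjusted, 2 lower by DESeq2, 0 by limma) and for 16 fatty acid desaturases (1 higher and 2 lower unadjusted, 1 lower by DESeq2, 0 by limma). Among the regulators, 3 of 79 MYB factors rose (3.80%) and 2 fell (2.53%), and 2 of 87 bHLH factors rose (2.30%) and 3 fell (3.45%). Of 40 NAC factors 1 rose and 1 fell (2.5% each), and 1 of 54 WRKY factors fell (1.85%). With 1 library left out these counts ranged from 0 to 5. Cell division and histone genes numbered 78, with 1 called higher and 0 lower by edgeR (2 higher and 10 lower at an unadjusted p under 0.05, 1 higher and 1 lower by DESeq2, and 1 higher by limma) and a median of −0.49. The call was lost in 11 of the 18 fits, without SCZ_NA replicate 2 or 3, any 1 of the SCZ_DA or YH9_CA libraries, YH9_NA replicate 2 or 3 or YH9_DA replicate 3, and the median was −0.10 without SCZ_NA replicate 2.

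The level at the end of the cold stands beside the other stages as follows. The comparisons of SCZ_CA and of SCZ_DA with SCZ_NA share the SCZ_NA libraries, so only levels are given. GIGANTEA had 19.6, 17.1 and 21.2 FPKM at NA, 642, 199 and 175 FPKM at CA and 1.82, 1.13 and 2.04 FPKM at DA, highest in the cold and lowest after it. HSC70-1-like CSS007224 was also lowest after the cold but overlapped between NA and CA, with 788, 536 and 515 FPKM at NA, 593, 1203 and 1496 FPKM at CA and 49.8, 25.2 and 22.8 FPKM at DA. The antenna protein 6A (CSS018780) had 454, 509 and 518 FPKM at NA, 30, 11.3 and 42.1 FPKM at CA and 91.1, 92.4 and 71.1 FPKM at DA, so that it was lowest in the cold and between the other stages after it. The beta-amylase 3 locus CSS050373 had 0.381, 0.626 and 0.525 FPKM at NA, 39.7, 3.8 and 15.9 FPKM at CA and 9.63, 9.8 and 9.69 FPKM at DA, with the DA values inside the CA range. CONSTANS-LIKE 2-like CSS050392 had 8.49, 15.5 and 11.6 FPKM at NA, 12.1, 8.83 and 4.6 FPKM at CA and 32.7, 113 and 211 FPKM at DA, highest only after the cold. The LEA protein CSS041102 had 33.8, 30.9 and 46 FPKM at NA, 2576, 2739 and 1704 FPKM at CA and 54.7, 88.1 and 136 FPKM at DA, and the CBF-like factor CSS018720 had 7.29, 1.58 and 6.82, 563, 898 and 439 and 8.83, 37.7 and 105 FPKM at these stages. Both were far higher in the cold than at either warm stage.

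**Figure D4:**
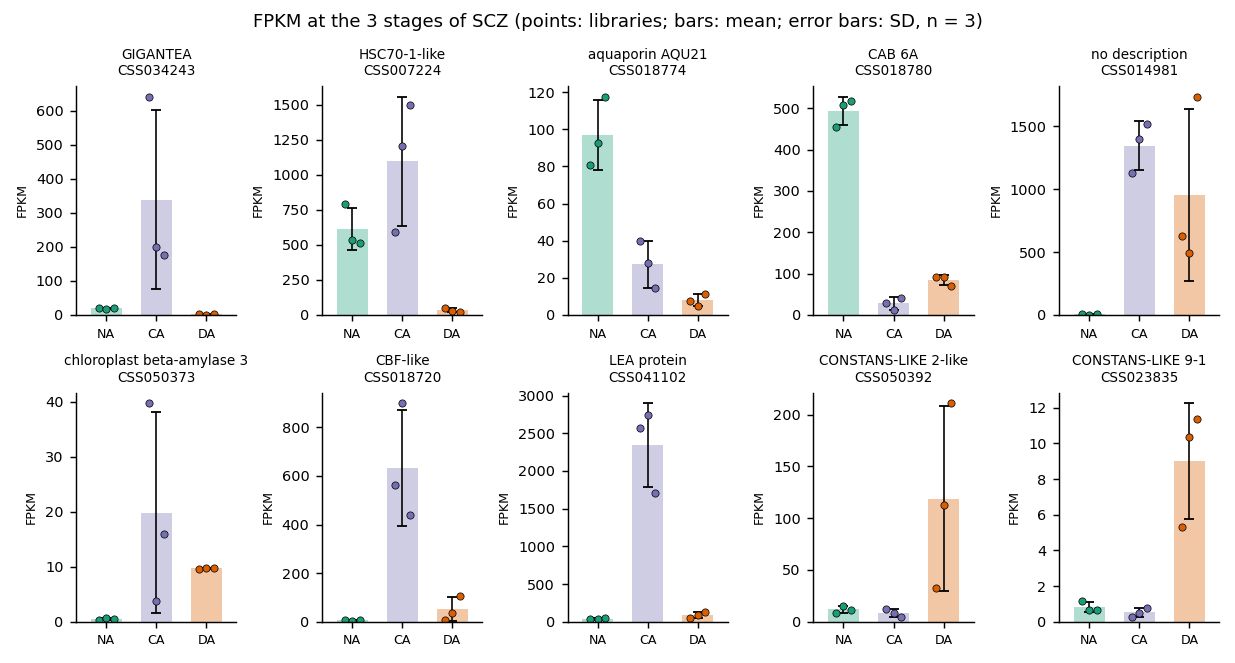
FPKM of 10 genes at NA (day 0), CA (day 14) and DA (day 21) in SCZ, on a separate linear axis for each gene starting at 0. Bars are the mean, error bars the SD and points the 3 libraries; the LEA protein CSS041102 peaks at CA, with 2576, 2739 and 1704 FPKM, while CONSTANS-LIKE 2-like CSS050392 is highest at DA, with 32.7, 113 and 211 FPKM.

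In YH9, where DA and NA were compared in the same way, 16 loci (0.0551%) were higher and 93 (0.32%) lower. The YH9 and SCZ comparisons share no libraries, but they share the fitted spread. Libraries varied more within the SCZ groups than within the YH9 groups, so the numbers of calls in the cultivars are not directly comparable. The 7 shared rises are 1.67% of the SCZ rises and 43.75% of the YH9 rises, the 67 shared falls are 14.6% and 72.04%, and 0 loci were called in opposite directions. A locus called in only 1 cultivar is not shown to differ between them. In edgeR's test of the interaction of cultivar and stage, 2 loci (0.00689%) passed, and 2244 had an unadjusted p under 0.05. In YH9, 27 of 131 heat shock genes and 6 of 18 light-harvesting genes were lower. HSC70-1-like CSS007224 fell in YH9 (log2 fold change −3.75 ± 0.51 SE, edgeR adjusted p = 0.00267), as did GIGANTEA (log2 fold change −2.92 ± 0.46 SE, edgeR adjusted p = 0.00726). CONSTANS-LIKE 9-1 (CSS023835) rose in both (log2 fold change 3.01 ± 0.48 SE, edgeR adjusted p = 0.00797 in YH9). AQU21 had 26.5, 25.3 and 38.7 FPKM in YH9_DA, against 52.9, 45.4 and 73.9 FPKM in YH9_NA (log2 fold change −1.10 ± 0.36 SE, edgeR adjusted p = 0.288), with a difference between the cultivars of −2.55 ± 0.51 SE on the log2 scale (edgeR adjusted p = 0.274). The beta-amylase 3 locus CSS050373 had 1.22, 2.01 and 3.62 FPKM in YH9_DA, against 0.641, 0.654 and 0.707 FPKM in YH9_NA (log2 fold change 1.59 ± 0.57 SE, edgeR adjusted p = 0.356). The 231 ribosomal genes had a median of 0.44 in SCZ and of −0.06 in YH9, a difference that was not tested, and the 28 aquaporins had a median of −1.04 with 3 falls in YH9.

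One of the 2 loci that passed the interaction test was CSS014981, which has no product description. It had 625, 491 and 1737 FPKM in SCZ_DA, against 6.12, 3.15 and 4.57 FPKM in SCZ_NA (log2 fold change 7.59 ± 0.68 SE, edgeR adjusted p = 0.000134), and 1130.1, 1398 and 1516 FPKM in SCZ_CA. Every SCZ_DA library was far above every SCZ_NA library. In YH9 it had 6.52, 15.4 and 4.15 FPKM at DA and 3.22, 2.47 and 3.4 FPKM at NA. The difference between the cultivars' log2 fold changes was 6.25 ± 0.79 SE on the log2 scale (edgeR adjusted p = 0.015). The locus was called in SCZ in all 18 fits and with the spread of the 6 or the 9 SCZ libraries, and 2 loci of the table carry its name.

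**Figure D5:**
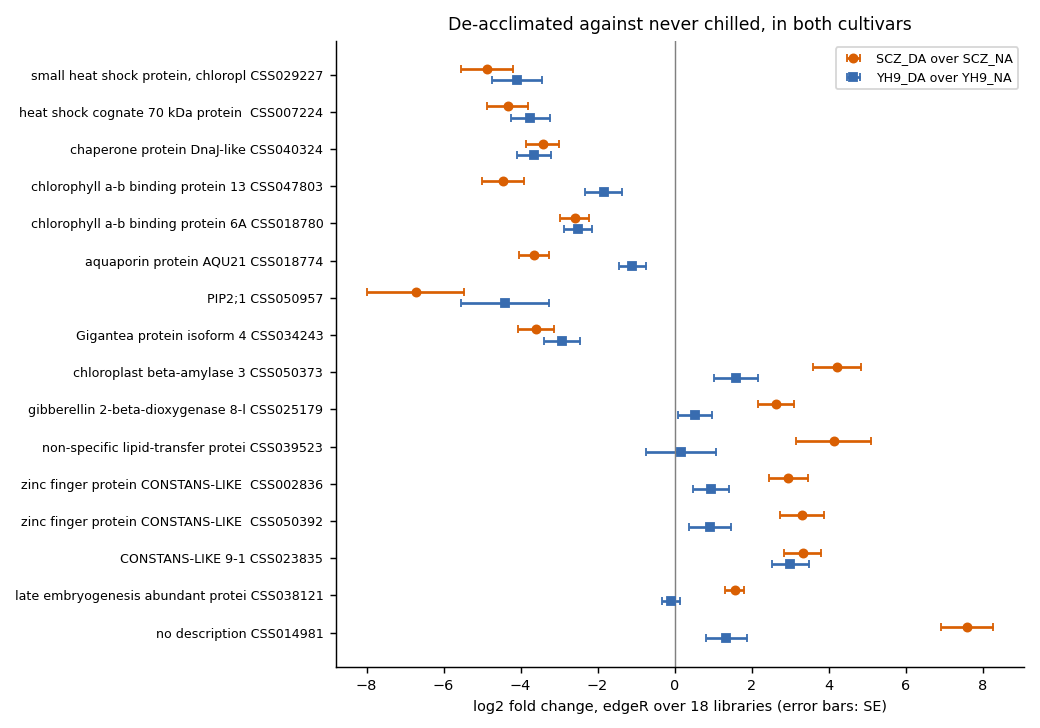
Log2 fold changes of DA over NA for 16 genes, with SCZ as orange circles above YH9 as blue squares and bars of 1 SE. HSC70-1-like CSS007224 lies low in both cultivars (−4.34 in SCZ), whereas CSS014981 lies at 7.59 in SCZ and 1.34 in YH9.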

How the data were processed

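Leaf RNA of 18 libraries, 3 for each of 2 cultivars and 3 stages, was sequenced by the authors. The submitters' notes list cutadapt 1.9, HISAT2 2.2.1 and StringTie 2.1.6, and which program wrote the counts is not stated. The FPKM values are used as deposited by the authors. The estimated counts were deposited as whole numbers, also by the authors, and their strand setting is not given in the sources used here. Library totals are given with the results, and they set the counting error only in part, since an estimated count is not shown to be 1 sequenced read.

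Counts were tested with edgeR 4.0.16 (R 4.3.3, TMM scaling, quasi-likelihood, 6 group means, 18 libraries). Loci entered if 3 or more libraries reached 1 FPKM. P-values were adjusted over all 29019 loci by Benjamini-Hochberg, and the limits for DEGs were 0.05 for the adjusted p and 2 for the fold change. SEs are the size of the log2 fold change divided by the square root of its F statistic. The difference between the cultivars was tested as an interaction. Alternatives were other scalings and filters, the spread of 6 or 9 libraries, a replicate block, limma 3.58.1 on log2(FPKM + 1) or log2(FPKM + 0.1), DESeq2 1.42.0, counts divided by 4 and each library left out. The code was tested on simulated data.

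The members and the 39 gene lists, taken by product description, were chosen with earlier results of these data known. Genes are named if they are among the 10 largest rises or falls without overlap and with a mean of at least 10 FPKM in the higher group, are called with the spread of the 6 libraries, are among the 4 most abundant called members of a list, have one of the lowest interaction p-values, or are in the study's primer list. Further genes were chosen after their values were seen.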

Additional observations from a re-analysis of the deposited data

Results flagged for a closer look

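The change between DA and NA differed between SCZ and YH9 by edgeR's interaction test at 2 loci, neither with a product description. At CSS014981 the SCZ log2 fold change exceeded that of YH9 by 6.25 (SE 0.79, adjusted p = 0.015 by edgeR), with 625, 491 and 1737 FPKM in SCZ_DA, against 6.12, 3.15 and 4.57 FPKM in SCZ_NA. At CSS047289 the fitted difference was 6.83 (SE 0.81, adjusted p = 0.015 by edgeR), but its size is not fixed, because SCZ_NA held no counts. This locus had 0.22, 0.157 and 0.192 FPKM in SCZ_DA, against 0 in all 3 SCZ_NA libraries, and 4.46, 5.98 and 5.35 FPKM in YH9_DA, against 7.02, 5.84 and 4.75 FPKM in YH9_NA. Its SCZ_DA libraries held 12, 8 and 11 estimated counts, at least 2.97-fold above a floor of 3 counts per library. In SCZ_DA and SCZ_NA it stayed below 1 FPKM, the limit for entry, which its YH9 libraries reached. Its SCZ call was lost with the spread of the 6 or the 9 SCZ libraries. It was also lost with limma on log2(FPKM + 1) and with DESeq2 over the 6 libraries. Each of the 2 names is carried by 2 loci of the table.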

How the results depend on the processing

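The counts of 420 rises and 459 falls moved by more than 1.5 times under several choices. With the spread of the 9 SCZ libraries 2 rose and 5 fell, and with that of the 6 libraries 7 rose and 37 fell, so that rises made up 28.57% and 15.91% of the calls instead of 47.78%. DESeq2 called 792 and 1091 over the 18 libraries and 613 and 843 over the 6. Leaving out 1 library gave 82 to 578 rises and 120 to 713 falls, lowest without SCZ_DA replicate 3 and highest without SCZ_CA replicate 2. The counts were 128 and 246 without SCZ_NA replicate 2, 164 and 232 without SCZ_NA replicate 3, and 250 and 291 without YH9_DA replicate 3. The 2 interaction calls became 1 with counts divided by 4, 31 with limma on log2(FPKM + 1) and 152 with DESeq2, and 0 (without YH9_DA replicate 3) to 12 (without SCZ_DA replicate 2) with 1 library left out. The causes were not tested. Other scalings, filters, pseudocounts and robust dispersions kept both counts within 1.5 times, and no named gene that was called changed sign under an alternative. Rises outnumbered falls with limma on log2(FPKM + 1) (503 and 471) or log2(FPKM + 0.1) (548 and 452) and without SCZ_DA replicate 1 (487 and 466). The photosystem II median was 0.85 without SCZ_NA replicate 1, against −0.21 with all libraries. Replicate numbers were shared by the labels of the groups, but the deviations of same-numbered libraries correlated at 0.105, 0.379 and 0.052, so the numbers were not taken to pair samples. A replicate block gave 279 rises, 319 falls and 0 interaction calls. Depth limits the loci without counts in a group, where folds are given as bounds.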
